A study of Homo sapiens with 4 samples.

Results

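The ID family (inhibitor of DNA binding) comprises ID1, ID2, ID3 and ID4, and its mRNAs were measured before and after a short exposure of breast epithelial cells to TGF-β1. The members were the transcripts that GENCODE release 29 assigns to these genes, which gave 4 genes of 34500 and 10 transcripts of 159239. ID proteins carry a helix-loop-helix domain that pairs with E proteins, the widely expressed basic helix-loop-helix transcription factors, but they lack the basic stretch that holds DNA. An E protein bound by an ID protein therefore cannot bind its E-box sites, and ID proteins are known as brakes on differentiation. Their genes are classic immediate targets of the BMP branch of the TGF-β superfamily, which signals through SMAD1, SMAD5 and SMAD9. In epithelial cells TGF-β has been reported both to raise ID1 mRNA and, at later times, to repress it together with ATF3.

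The cells were MCF10A, a non-transformed human breast epithelial line, and all 4 libraries came from cells that carried a scramble shRNA, the controls included. TGF-β1 at 5 ng/ml was added to the medium for 1.5 h for 2 libraries, and 2 control libraries stood for 0 h without TGF-β1. All cells grew with 5% horse serum, 20 ng/ml EGF, insulin, hydrocortisone and cholera toxin, and the serum is an undefined source of further ligands. The labels call the samples biological duplicates of 1 cell line, and p-values measure only the spread between these samples.

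The totals of estimated counts were 40461473 and 35737659 in the TGF-β1 libraries and 40792300 and 36693330 in the control libraries. All 10 basal mammary markers passed the filter on low counts and summed to 9650 and 6494 TPM (a level corrected for transcript length and library size) with TGF-β1, against 9061 and 5847 TPM in controls. Of the 7 fibroblast markers, 3 passed the filter, with sums over the list of 28.5 and 26.2 TPM with TGF-β1 and 21.4 and 19.8 TPM in controls. Most of these sums came from DCN, which encodes the matrix protein decorin and had 19.0 and 21.3 TPM with TGF-β1 and 17.7 and 17.2 TPM in controls. COL1A1, a collagen gene, had 8.76 and 4.40 TPM with TGF-β1 and 2.96 and 1.99 TPM in controls. PDGFRA and PDGFRB stayed at or below 0.374 TPM and COL1A2, COL3A1 and LUM at or below 0.101 TPM in every library. The 8 endothelial and blood markers summed to 16.3 and 15.2 TPM with TGF-β1 and to 19.4 and 16.5 TPM in controls. Nearly all of that was CD68, a macrophage marker that other cells also express at a lower level, with 14.7 and 13.3 TPM with TGF-β1 and 17.2 and 14.5 TPM in controls, while CD3E had no count in any library. The 8 luminal markers summed to 659 and 511 TPM with TGF-β1 and to 693 and 499 TPM in controls. Nearly all of that was KRT8 and KRT18. KRT8 had 223 and 161 TPM with TGF-β1 and 236 and 146 TPM in controls. KRT18 had 432 and 347 TPM with TGF-β1 and 454 and 348 TPM in controls. GATA3 stayed at or below 2.87 TPM, ESR1 at or below 1.37 TPM, and KRT19, ELF5, PGR and KIT at or below 0.445 TPM in every library. DESeq2 called no gene of these 4 marker lists (0.422% higher and 0.0356% lower over all genes), and their part in the ID results was not tested. In bulk RNA, fewer cells that express a gene and less RNA per cell cannot be told apart.

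The ID genes are close relatives, so the coding stretch they share is shown with its differences. Over the main coding transcripts, the ungapped stretch of 40 codons with the highest identity lies in the helix-loop-helix region, at codons 67 to 106 of ID1, 37 to 76 of ID2, 42 to 81 of ID3 and 66 to 105 of ID4. Capitals mark the 68 of 120 bases (56.7%) that are the same in all 4 genes.
ID1: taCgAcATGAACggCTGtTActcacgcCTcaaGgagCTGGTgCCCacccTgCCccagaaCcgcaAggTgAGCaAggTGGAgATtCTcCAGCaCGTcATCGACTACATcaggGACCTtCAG
ID2: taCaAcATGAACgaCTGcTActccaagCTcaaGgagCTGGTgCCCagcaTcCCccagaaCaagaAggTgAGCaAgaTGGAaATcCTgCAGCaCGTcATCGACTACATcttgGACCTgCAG
ID3: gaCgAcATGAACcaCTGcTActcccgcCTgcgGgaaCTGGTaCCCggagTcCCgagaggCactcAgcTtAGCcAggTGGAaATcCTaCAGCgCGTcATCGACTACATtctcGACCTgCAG
ID4: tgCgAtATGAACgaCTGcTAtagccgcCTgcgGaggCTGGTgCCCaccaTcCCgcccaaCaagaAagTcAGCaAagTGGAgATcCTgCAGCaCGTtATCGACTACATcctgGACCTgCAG
ID1 and ID2 were the closest pair in this stretch, with 83.3% of bases identical, and ID1 and ID3 the most distant, with 69.2%. The longest identical run between any pair was 21 bases, between ID1 and ID2. Over the whole transcripts no run of 31 bases was shared between ID genes, so the counts of one member could not be exchanged with another through words of that length. ID2 shared 79 such words with the processed pseudogene AC104849.1 on chromosome 3, to which the deposited tables gave 0 counts in both TGF-β1 libraries and 0 and 2.02 in the controls.

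TGF-β1 for 1.5 h was accompanied by higher levels of 3 of the 4 ID mRNAs. ID2 rose most by fold, 10.6-fold, ID3 rose 5.86-fold and ID1 rose 2.29-fold, while ID4 had 0 to 9.91 estimated counts per library. DESeq2 (Wald test, Benjamini-Hochberg adjustment, threshold 0.05) called these 3 members higher. It gave an adjusted p to 19649 genes, and called 0.422% of these higher and 0.0356% lower. The DESeq2 shares given over all genes refer to these 19649. The quasi-likelihood test of edgeR, which was the main test, called none of the 3 ID genes after Benjamini-Hochberg adjustment. It also called none of the 14774 genes it tested (0%), with a lowest adjusted p of 0.0888, and 255 genes (1.73%) had an unadjusted p under 0.05. Of these, 198 (1.34% of all tested) were higher with TGF-β1, and the 3 ID genes were among them. "Rose" is used below for genes called by DESeq2, and standard errors (SE) are those of edgeR's log2 fold change.

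ID2 lies on chromosome 2 (chr2:8678845-8684453, plus strand, GRCh38, ENSG00000115738) and blocks E proteins in many lineages. It had 168 and 111 TPM in the TGF-β1 libraries, against 11.3 and 14.7 TPM in the control libraries. Both TGF-β1 libraries stood far above both controls, and within the TGF-β1 group replicate 1 was the higher one, whereas replicate 2 was the higher control. The means were 140 ± 40.0 TPM with TGF-β1 and 13.0 ± 2.39 TPM in controls (SD, n = 2 each). The log2 fold change was 3.41 ± 0.26 (SE), with an adjusted p of 0.192 by edgeR and 6.39e-28 by DESeq2. ID2 ranked 13 of 14774 genes by fold change. Its mean level ranked 934 among all genes with TGF-β1 and 7303 in controls. Between libraries of the same replicate number the ratio of CPM (counts scaled to library size by TMM, with no length correction) was 14.3 for replicate 1 and 7.82 for replicate 2.

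ID3 (chr1:23557918-23559794, minus strand, ENSG00000117318) had 813 and 913 TPM with TGF-β1, against 139 and 166 TPM in controls. The groups were again far apart, and the libraries within a group were close to each other. The means were 863 ± 70.4 TPM with TGF-β1 and 152 ± 19.0 TPM in controls (SD, n = 2 each). The log2 fold change was 2.55 ± 0.18 (SE), with an adjusted p of 0.171 by edgeR and 1.63e-25 by DESeq2. ID3 changed most evenly of the 3 members, with CPM ratios of 6.0 and 5.75 for replicates 1 and 2. It ranked 29 by fold change, and its mean level ranked 157 with TGF-β1 and 867 in controls.

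ID1 (chr20:31605283-31606515, plus strand, ENSG00000125968), the member most often followed as a TGF-β and BMP target, was the most abundant ID mRNA in every library. It had 1121 and 1352 TPM with TGF-β1, against 430 and 666 TPM in controls. Both TGF-β1 libraries were above both controls, but replicate 2 was 1.57 times replicate 1 among the controls and 1.27 times replicate 1 with TGF-β1, in CPM. The means were 1236 ± 163 TPM with TGF-β1 and 548 ± 166 TPM in controls (SD, n = 2 each). The log2 fold change was 1.20 ± 0.28 (SE), with an adjusted p of 1.00 by edgeR and 0.0193 by DESeq2. Between libraries of the same number the CPM ratios were 2.59 and 2.10. With the replicate number as a block in the fit, the adjusted p of ID1 was 0.000456 by edgeR and 1.66e-46 by DESeq2. The labels name no shared day or batch behind these numbers, so the main fit and the DESeq2 fits that follow carried no block. The DESeq2 call rested on 3 of the 4 libraries: the adjusted p was 0.0566 without TGF-β1 replicate 1, 0.631 without TGF-β1 replicate 2, 0.549 without control replicate 1 and 0.00114 when control replicate 2 was left out. ID2 and ID3 were called by DESeq2 in all 4 of these fits.

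ID4 (chr6:19837386-19840684, plus strand, ENSG00000172201), a member studied in mammary stem and basal cells, was barely detected. It had 9.91 and 0 estimated counts with TGF-β1 and 4 and 0 in controls, or 0.157 and 0 TPM against 0.0622 and 0 TPM. The exact 95% upper limits on its level, here in CPM of the unscaled total of matched counts, were 0.465 and 0.106 with TGF-β1 and 0.257 and 0.103 in controls, and cover counting error only. Replicate 1 of each group had counts and replicate 2 of each group had none, so the groups overlapped. ID4 did not pass the filter of edgeR, no fold change is given, and a difference was not detectable at this depth.

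**Figure D1:**
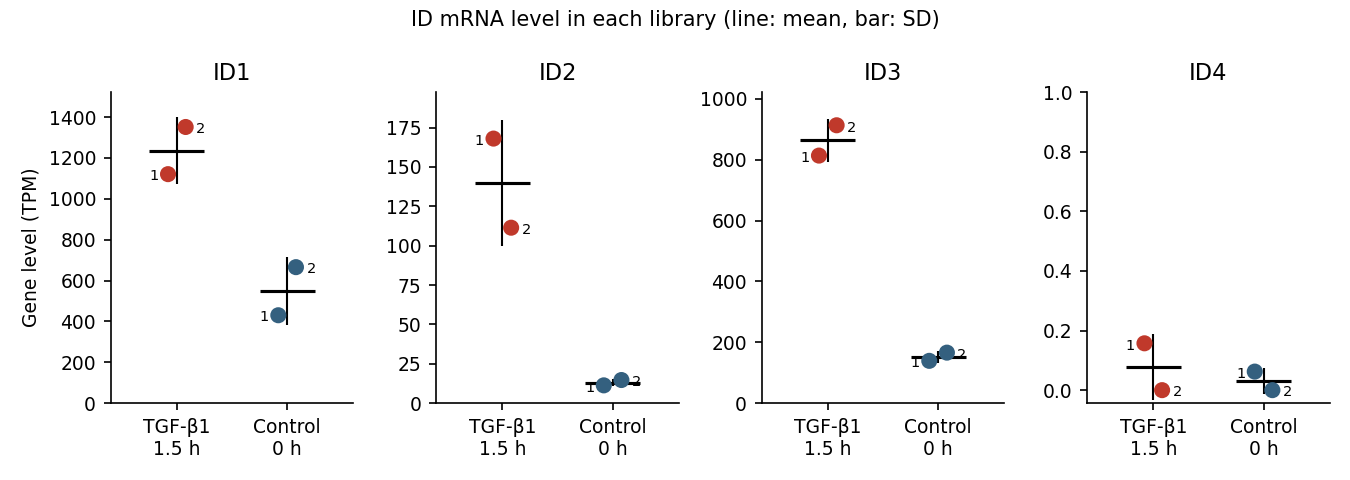
Level of each ID gene in TPM (y axis, a scale for each gene) in the TGF-β1 1.5 h and control 0 h libraries; points are libraries, marked by replicate number, and bars the mean ± SD of 2. ID1, ID2 and ID3 have both TGF-β1 libraries above both controls, and ID4 lies below 1 TPM in every library.

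The plot of levels by library shows non-overlapping groups for ID1, ID2 and ID3. Of all 14774 genes tested, 1162 (7.87%) had both TGF-β1 libraries above both controls and 8.34% had both below, so this separation alone is not rare. The median log2 fold change over all tested genes was -0.01, against 1.20, 3.41 and 2.55 for ID1, ID2 and ID3.

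The members contributed unequally to the family's total mRNA. Summed over ID1 to ID4, the level was 2102 and 2376 TPM with TGF-β1, against 581 and 846 TPM in controls. Both TGF-β1 sums exceeded both control sums, and the means of 2239 ± 194 and 713 ± 188 TPM (SD, n = 2 each) differed 3.14-fold. The exact two-sided permutation test over samples gave p = 0.333, the smallest value that 2 against 2 samples allow. ID3 supplied 46.6% of the gain in summed TPM and ID1 45.1%, although ID1 had the smaller fold change, and ID2 supplied 8.31%.

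The make-up of the pool differed between the groups. ID1 made up 53.3% and 56.9% of summed ID mRNA with TGF-β1, against 74.1% and 78.7% in controls. ID3 made up 38.7% and 38.4% with TGF-β1, against 23.9% and 19.6% in controls. ID2 made up 7.99% and 4.69% with TGF-β1, against 1.95% and 1.74% in controls. The share of ID1 was thus lower, and the shares of ID3 and ID2 higher, in both TGF-β1 libraries than in either control. Set against each other per library, ID1 was 6.67 and 12.1 times the level of ID2 in TPM with TGF-β1 and 38.0 and 45.3 times in controls. ID1 was 1.38 and 1.48 times the level of ID3 with TGF-β1 and 3.09 and 4.01 times in controls. The order ID1, ID3, ID2, ID4 held in all 4 libraries.

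The partners of ID proteins were measured for comparison. TCF3, which encodes E12 and E47, had 72.5 and 71.6 TPM with TGF-β1 and 65.9 and 76.5 TPM in controls. TCF12, which encodes HEB, had 44.2 and 37.1 TPM with TGF-β1 and 37.2 and 38.4 TPM in controls. TCF4, which encodes E2-2, had 5.64 and 4.82 TPM with TGF-β1 and 6.79 and 4.81 TPM in controls. In TPM the groups overlapped for all 3 E proteins. In CPM, TCF3 had 119 and 113.6 with TGF-β1, just above the 112 and 113.5 of the controls. The log2 fold changes of TCF3, TCF12 and TCF4 were 0.05 ± 0.11, -0.08 ± 0.11 and -0.15 ± 0.17 (SE). DESeq2 and edgeR called none of the 3, and over all genes DESeq2 called 0.422% higher and 0.0356% lower. Summed E protein mRNA was 118 ± 6.21 TPM with TGF-β1 and 115 ± 6.90 TPM in controls (SD, n = 2 each).

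ID mRNA exceeded E protein mRNA in every library. The ratio of the 2 sums in TPM was 17.2 and 20.9 with TGF-β1, against 5.28 and 7.07 in controls. The mean ratio was 3.09-fold higher with TGF-β1 (exact two-sided permutation p = 0.333, the smallest possible with 2 against 2). These are ratios of mRNA, and protein levels were not measured in these libraries.

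**Figure D2:**
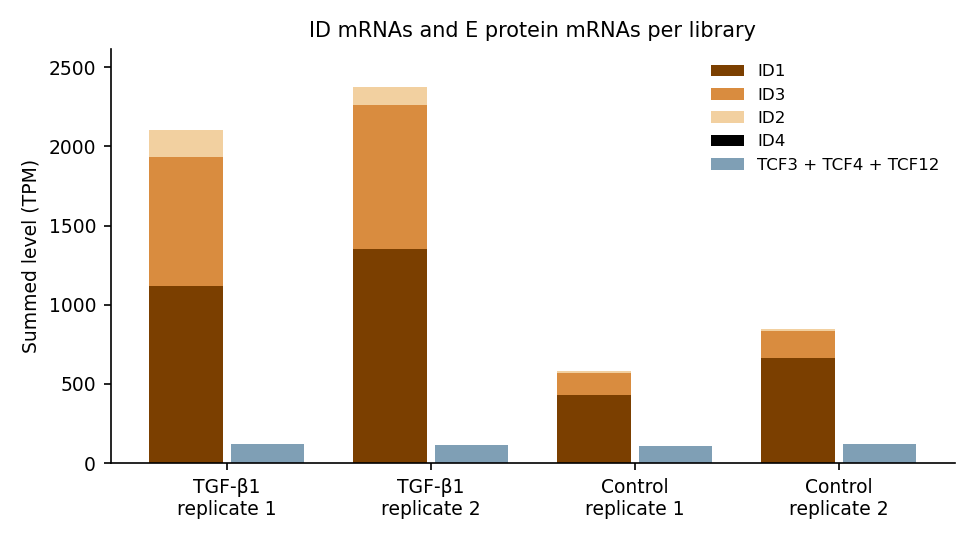
Summed levels in TPM (y axis) per library, with the ID genes stacked by member beside the sum of the E protein genes TCF3, TCF4 and TCF12. The ID stacks reach 2102 and 2376 TPM with TGF-β1 and 581 and 846 TPM in controls, while the E protein bars stay between 110 and 122 TPM.

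The plot of summed levels also shows that ID2 is a thin part of the stack in every library, although it has the largest fold change.

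Of the 38 tissue-restricted helix-loop-helix factors on the list of E protein partners, 6 passed the filter, and 1 was called higher by DESeq2 (0.422% over all genes). ATOH8, a member of the atonal family, had 9.29 and 8.51 TPM with TGF-β1, against 1.56 and 3.70 TPM in controls. It rose by 1.72 ± 0.44 on the log2 scale (SE; DESeq2 adjusted p = 0.0237), and the call was lost without TGF-β1 replicate 1 (0.767), TGF-β1 replicate 2 (0.293) or control replicate 1 (0.591). TWIST1, a factor of mesenchymal cells, had a log2 fold change of -0.28 ± 0.20 (SE). TWIST2, at 21.7 and 19.9 TPM with TGF-β1 and 18.9 and 21.8 TPM in controls, had one of 0.05 ± 0.15 (SE). The median of the 6 was -0.24, but NEUROD2, SCX and TCF23 among them stayed at or below 0.825 TPM in every library. The remaining 32 genes did not pass the filter of edgeR.

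Each ID gene produces more than 1 annotated transcript except ID4, and the estimated counts separate them as far as their bases differ. An isoform was called intron-containing when it held bases from an intron of the gene's most abundant isoform. ID1 has a spliced isoform, ID1-202, and a single-exon isoform, ID1-201, that keeps the whole intron of 239 bases (chr20:31605814-31606052). They code for different ends of the protein, of 155 and 149 codons not counting the stop codon, so the ends are shown. Lower case marks the last bases of the shared exon 1, and capitals mark exon 2 in ID1-202 and the intron in ID1-201, each down to the stop codon.
ID1-202: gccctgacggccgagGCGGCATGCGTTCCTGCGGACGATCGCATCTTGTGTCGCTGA
ID1-201: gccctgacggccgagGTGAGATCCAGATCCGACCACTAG
The spliced isoform adds 42 bases after exon 1 and ends in TGA, and the intron-keeping isoform adds 24 bases and ends in TAG. Of all words of 31 bases, 27 occurred in ID1-202 but not in ID1-201, and 266 in ID1-201 but not in ID1-202, so the spliced form is told from the other by few positions. Unspliced pre-mRNA of ID1 would carry the same bases as ID1-201, and the 2 cannot be told apart here.

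Both spliced and intron-keeping ID1 RNA rose. ID1-202 had 1059 and 1290 TPM with TGF-β1, against 403 and 636 TPM in controls. ID1-201 had 62.0 and 61.2 TPM with TGF-β1, against 27.4 and 30.1 TPM in controls. Both isoforms had non-overlapping groups, and ID1-201 varied less between replicates than ID1-202. Such separation was not rare among genes (7.87% had both TGF-β1 libraries above both controls), and its share among all transcripts was not counted. The log2 fold changes were 1.20 ± 0.29 for ID1-202 and 1.12 ± 0.15 for ID1-201 (SE). The DESeq2 adjusted p-values, over the 57045 transcripts that were given one, were 0.0215 and 0.000965.

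ID2 was dominated by ID2-203, which has 0 words of 31 bases that its other isoforms lack, so its share rests on the estimation. ID2-203 had 129 and 86.9 TPM with TGF-β1, against 9.13 and 11.7 TPM in controls. The short isoform ID2-202, which runs 101 bases into an intron and stops there, had 29.3 and 24.4 TPM with TGF-β1, against 2.18 and 2.42 TPM in controls. Their log2 fold changes were 3.39 ± 0.27 and 3.56 ± 0.31 (SE), and DESeq2 called both. ID2-204, which the annotation names a retained intron, had 9.19 and 0 TPM with TGF-β1 and 0 and 0.560 TPM in controls, so the value in TGF-β1 replicate 1 was not met in replicate 2. ID2-201, which starts farther upstream, stayed at or below 0.558 TPM. Neither was tested by edgeR nor called by DESeq2.

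ID3 was read from 3 transcripts. The coding isoform ID3-201 had 576 and 629 TPM with TGF-β1, against 92.6 and 112 TPM in controls. ID3-202, a non-coding form that starts within the first intron, had 199 and 248 TPM with TGF-β1, against 39.8 and 47.2 TPM in controls. ID3-203, which holds 490 of the 519 bases of the second intron, had 38.3 and 36.1 TPM with TGF-β1, against 6.66 and 6.43 TPM in controls. All 3 had groups that did not overlap, a separation whose share among all transcripts was not counted (7.87% higher among genes). Their log2 fold changes were 2.58 ± 0.18, 2.37 ± 0.21 and 2.52 ± 0.20 (SE).

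Over the family, DESeq2 called 7 isoforms higher, against 0.442% of 57045 transcripts, and these were all the ID isoforms that edgeR tested. The quasi-likelihood test of edgeR called 0 of 57796 transcripts (0%) after adjustment, with 1715 (2.97%) at an unadjusted p under 0.05, all 7 ID isoforms among them.

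The share of intron-containing isoforms was then compared within each gene. For ID1 it was 5.53% and 4.53% of the gene's TPM with TGF-β1 and 6.36% and 4.52% in controls, and the groups overlapped. For ID2 it was 22.9% and 21.9% with TGF-β1 and 19.3% and 20.3% in controls, 2.60 percentage points higher on average. For ID3 it was 29.2% and 31.1% with TGF-β1 and 33.4% and 32.3% in controls, 2.74 percentage points lower on average. The groups of ID2 and ID3 did not overlap, in opposite directions, with an exact two-sided permutation p of 0.333, the smallest possible. By estimated counts the share of ID2 was 9.41% (95% Wilson interval 8.62% to 10.3%) and 9.41% (8.44% to 10.5%) with TGF-β1, against 8.26% (5.81% to 11.6%) and 8.25% (6.0% to 11.3%) in controls. These intervals cover counting error only, and those of ID2 overlapped, so its difference was not detectable at this depth. The share of ID3 by counts was 15.9% (15.4% to 16.4%) and 16.6% (16.1% to 17.1%) with TGF-β1, against 18.6% (17.4% to 19.9%) and 17.7% (16.5% to 18.8%) in controls. The ID3 interval of TGF-β1 replicate 1 lay below those of both controls, and that of TGF-β1 replicate 2 overlapped the interval of control replicate 2.

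Differential isoform use within genes, tested with edgeR's diffSpliceDGE, was called for 112 of 10722 genes (1.04%) and for none of the ID genes. The gene-level p-values were 0.815 for ID1, 0.746 for ID2 and 0.692 for ID3, with adjusted p-values of 1.00. Relative to its gene as a whole, ID1-201 changed by -0.05, ID2-202 by 0.11, ID3-202 by -0.13 and ID3-203 by -0.02 on the natural log scale. These relative changes were small beside the gene-level changes of 1.20 to 3.41, which are on the log2 scale.

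**Figure D3:**
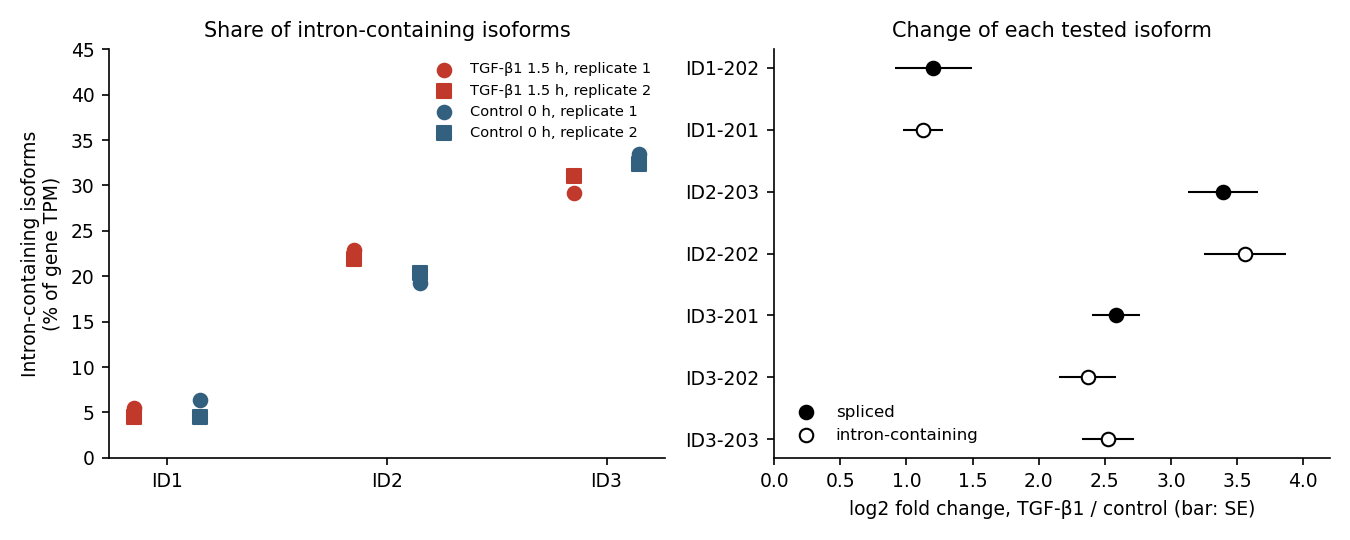
Left, share of intron-containing isoforms (% of the gene's TPM, y axis) for ID1, ID2 and ID3 in each library; right, log2 fold change with SE (x axis) of each tested isoform, with filled points for spliced and open points for intron-containing ones. The shares differ by under 3 percentage points between group means, and the 7 isoforms lie between 1.12 and 3.56, grouped by gene.

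The plot of isoforms places the forms of each gene near each other on the axis of fold change, with ID1 lowest, ID3 between and ID2 highest.

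The pathway that is known to drive ID genes was examined from ligand to target. Of 27 BMP ligands and antagonists, 15 passed the filter, with a median log2 fold change of 0.03. DESeq2 called none of them, against 0.422% higher and 0.0356% lower over all genes. BMP2, a ligand, had 10.2 and 8.77 TPM with TGF-β1, against 5.53 and 5.76 TPM in controls, a log2 fold change of 0.78 ± 0.14 (SE; DESeq2 adjusted p = 0.124). NOG, which encodes the secreted antagonist noggin, had 7.36 and 1.45 TPM with TGF-β1 and 0.687 and 0.941 TPM in controls. The high value of NOG lay in TGF-β1 replicate 1 alone, and its DESeq2 adjusted p was 0.168.

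None of the 11 receptors that were tested, of 14 listed, was called, and their log2 fold changes ran from -0.21 to 0.12. DESeq2 called 0.422% of all genes higher and 0.0356% lower, so no call in a list this short is near those shares. BMPR2 had 5.18 and 5.21 TPM with TGF-β1 and 4.75 and 5.03 TPM in controls. BMPR1A had 15.1 and 14.0 TPM with TGF-β1 and 14.3 and 14.7 TPM in controls. The 6 receptor-activated and common SMAD genes were also not called, with a median log2 fold change of -0.02. SMAD1 had 11.4 and 11.2 TPM with TGF-β1 and 13.1 and 14.2 TPM in controls, and SMAD5 had 60.7 and 48.4 TPM with TGF-β1 and 55.5 and 53.7 TPM in controls. SMAD2, SMAD3 and SMAD4 had log2 fold changes of -0.01 ± 0.11, 0.16 ± 0.28 and -0.03 ± 0.10 (SE). SMAD9 had the highest log2 fold change of the 6, 0.46 ± 0.26 (SE).

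Among the feedback inhibitors of the pathway, 4 of 7 were called higher and none lower by DESeq2 (0.422% and 0.0356% over all genes), and the median log2 fold change was 1.15. SMAD7, the inhibitory SMAD of both branches, had 83.8 and 59.8 TPM with TGF-β1, against 4.48 and 4.76 TPM in controls, and rose by 3.76 ± 0.18 on the log2 scale (SE). SMAD6, the inhibitory SMAD that acts mainly on the BMP branch, had 11.8 and 6.84 TPM with TGF-β1, against 0.848 and 1.06 TPM in controls, and rose by 3.12 ± 0.33. SKIL, a SMAD co-repressor, had 56.3 and 53.6 TPM with TGF-β1, against 18.0 and 14.7 TPM in controls. SMAD6, SMAD7 and SKIL kept their calls in each fit without 1 library.

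BAMBI, a decoy receptor, had 11.2 and 9.34 TPM with TGF-β1, against 4.64 and 4.76 TPM in controls (DESeq2 adjusted p = 0.00519). Its call was lost whichever library was left out, with an adjusted p of 0.710 in the fit that lacked TGF-β1 replicate 2 and of 1.00 in the other 3 fits. SKI, a relative of SKIL, had 13.8 and 15.6 TPM with TGF-β1 and 6.45 and 7.19 TPM in controls, and was not called (0.130). The ubiquitin ligase genes SMURF1 and SMURF2 had log2 fold changes of 0.20 and 0.26.

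Other transcription factors reported to respond to BMP included 5 that DESeq2 called higher, of 11 tested and 15 listed (0.422% over all genes), with a median log2 fold change of 0.34. DLX2, a homeobox factor, had 11.4 and 8.27 TPM with TGF-β1, against 0.339 and 0.286 TPM in controls, and rose by 5.04 ± 0.27 on the log2 scale (SE). HEY1, which is also a target of Notch, had 14.0 and 6.24 TPM with TGF-β1, against 1.43 and 1.17 TPM in controls, and rose by 3.14 ± 0.46. GATA2, a zinc finger factor, had 7.55 and 5.24 TPM with TGF-β1, against 1.91 and 2.03 TPM in controls, and rose by 1.64 ± 0.24. The other 2 called genes were DLX1 and ATOH8.

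DLX2 and HEY1 kept their calls without any 1 library. DLX1 lost its call without TGF-β1 replicate 1 (adjusted p = 0.306). GATA2 lost its call without TGF-β1 replicate 1 (1.00), control replicate 1 (0.122) or control replicate 2 (0.162). MSX1, MSX2, TBX2, TBX3, RUNX2 and GATA3, which stand on the same list, were not called.

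**Figure D4:**
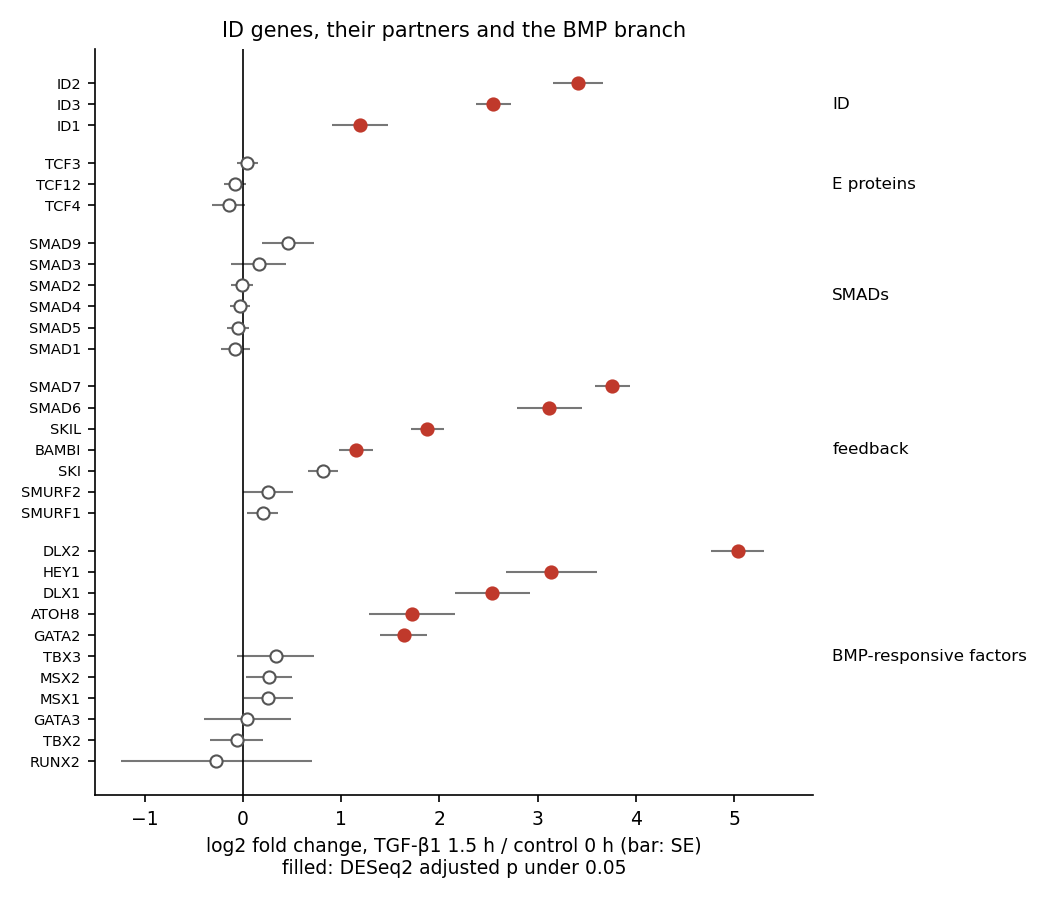
Log2 fold change with SE (x axis) of the tested ID genes, E proteins, SMADs, feedback inhibitors and BMP-responsive factors (rows); filled points passed DESeq2 at an adjusted p of 0.05. Filled points occur among the ID genes, the feedback inhibitors and the BMP-responsive factors, and the E proteins and SMADs lie between -0.15 and 0.46.

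Of 12 genes reported to control ID transcription directly, 9 were tested and none was called. Over all genes DESeq2 called 0.422% higher and 0.0356% lower. ATF3, which acts with SMAD3 on ID1 in epithelial cells, had 3.21 and 3.51 TPM with TGF-β1, against 1.99 and 2.03 TPM in controls, a log2 fold change of 0.78 ± 0.26 (SE; DESeq2 adjusted p = 1.00). MYC, which has been reported to activate ID2, had 79.0 and 143 TPM with TGF-β1, against 257 and 306 TPM in controls. Both TGF-β1 libraries were below both controls, with a log2 fold change of -1.29 ± 0.37 (SE; DESeq2 adjusted p = 0.0853). EGR1, an immediate early factor, had 2.58 and 4.02 TPM with TGF-β1, against 6.40 and 6.09 TPM in controls.

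Genes that set the stability of ID proteins, and the pocket proteins and CDK inhibitors that act with them in the cell cycle, were not called in either direction. The DESeq2 shares over all genes were 0.422% higher and 0.0356% lower. Of the turnover list 9 of 9 genes were tested, with a median log2 fold change of 0.04. FZR1, an activator of the anaphase-promoting complex, had a log2 fold change of 0.15 and COPS5, a COP9 signalosome subunit, one of 0.08. Of 10 pocket protein and CDK inhibitor genes 8 were tested, with a median of -0.01. CDKN1A, which encodes p21 and is repressed by ID1 in other settings, had 193 and 161 TPM with TGF-β1, against 120 and 108 TPM in controls (log2 fold change 0.67 ± 0.14, SE; DESeq2 adjusted p = 0.277).

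Promoters were read from RefSeq (GRCh38.p14), in the 250 bases before each gene's RefSeq start, and all 4 members were matched. In GENCODE, which starts ID2 and ID3 farther upstream, the ID3 window lies inside the first exon of ID3-201, and the ID2 window overlaps exons of ID2-201 and ID2-203. GTCT or its reverse complement AGAC, the short element that SMAD3 and SMAD4 bind, occurred 3 times for ID1, 2 times for ID2, 2 times for ID3 and 1 time for ID4. This element is common, since 77.5% of 35116 windows held it. In ID1, ID2 and ID3 a GTCT was followed closely by an AGAC, and these stretches of 30 bases are shown with both in capitals.
ID1, chr20:31605127-31605156, plus strand: GTCTttccacactgcgagcaggcactAGAC
ID2, chr2:8681944-8681973, plus strand: cgcccgctcGTCTtgatAGACgtgccacct
ID3, chr1:23559637-23559666, minus strand: ctccgcgGTCTtcggcgtcAGACcagccgg
The ID3 stretch is thus within the counted ID3-201 transcript, and the ID2 stretch lies in an exon of ID2-201, before the start of ID2-203. The elements stood 22 bases apart in ID1, 4 in ID2 and 8 in ID3. A GTCT followed by an AGAC after at most 22 bases occurred in 4.76% of all windows, and the limit of 22 bases was chosen after these promoters were read. The palindrome GTCTAGAC (0.182% of windows) was in none of the 4. The GC-rich elements of BMP-activated SMADs, GGCGCC (16.4% of windows) and TGGCGCC (4.64%), were in none of the 4 windows either. A match is a description of the letters and not of binding, and these windows do not reach the distal elements known for ID1.

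The other motifs searched, each on both strands, were CAGAC (38.0% of windows, overlapping the GTCT element), CANNTG, the E-box (61.8%), TGACG (21.2%), TGACGTCA (1.65%), GCGTGGGCG (0.720%) and CACGTG (6.34%). CAGAC occurred 1 time each for ID3 and ID4, the E-box 1 time each for ID2 and ID4, and TGACG 1 time for ID3. The remaining 3 motifs had no match in the 4 windows. GC content was 66.0% for ID1, 69.2% for ID2, 62.0% for ID3 and 78.8% for ID4, against a median of 58.0% over all windows.

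No neighbour of an ID gene was called. Within 500 kb of an ID gene's start, 26 genes were tested, and neither edgeR nor DESeq2 called any of them. Over all genes edgeR called 0%, and DESeq2 called 0.422% higher and 0.0356% lower, so no call among 26 is near those shares. None of the 26 had an unadjusted edgeR p under 0.05, against 1.73% of all tested genes. The log2 fold changes of the 26 ran from -0.27 (ZNF436) to 0.18 (MDS2), with a median of 0.01. The nearest were MDS2 at 21.7 kb and E2F2 at 28.6 kb from ID3. MCTS2P and HM13 lay 57.9 and 90.9 kb from ID1, KIDINS220 lay 159 kb from ID2, and MBOAT1 lay 375 kb from ID4. No other gene matched to GENCODE in the tables lay within 20 kb of an ID gene.

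**Figure D5:**
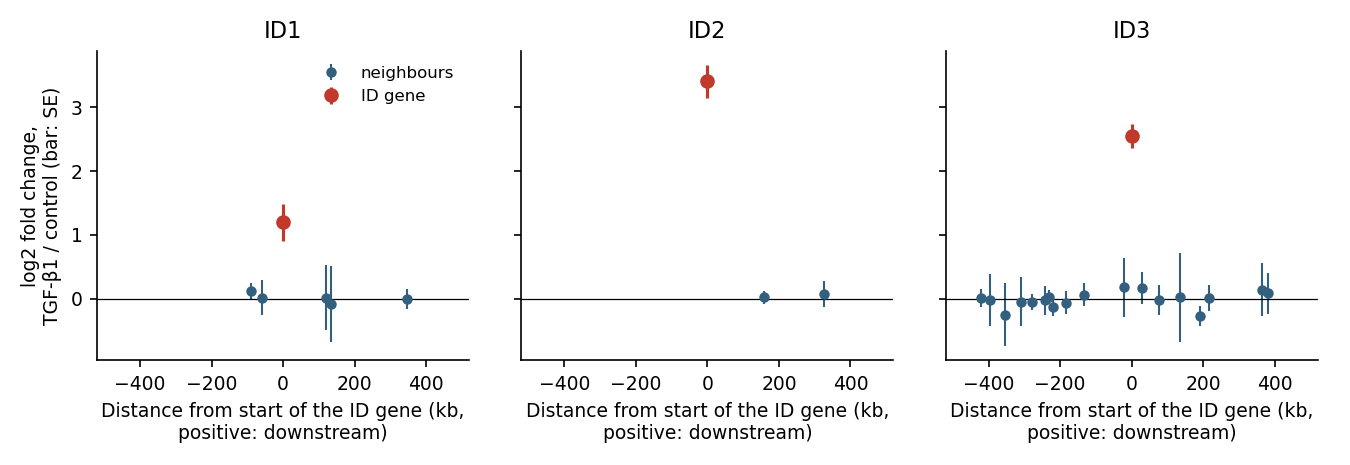
Log2 fold change with SE (y axis) of tested genes within 500 kb of ID1, ID2 and ID3 against distance from the start of the ID gene in kb (x axis, positive downstream); the ID gene is at 0. The ID genes stand at 1.20, 3.41 and 2.55, and their neighbours lie between -0.27 and 0.18; ID4, with 1 tested neighbour and no fold change of its own, is not drawn.

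The plot of neighbours shows the ID genes as single raised points at their loci.

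The genes whose levels were most like those of each member were named by the smallest Euclidean distance between centred log2 CPM values over the 4 libraries, as a description. For ID1 they were SERTAD1 (distance 0.188), GLIS2 (0.198) and ARRDC2 (0.208). SERTAD1 had 40.7 and 45.7 CPM with TGF-β1, against 13.4 and 20.9 CPM in controls, so it shared the higher control replicate 2 of ID1. For ID2 they were AC011462.1 (0.290), SMAD6 (0.346) and AC090527.2 (0.354). AC011462.1 had 1.36 and 0.840 CPM with TGF-β1, against 0 and 0.0546 CPM in controls. AC090527.2 had 0.946 and 0.521 CPM with TGF-β1 and 0 CPM in both controls. The log values carried a prior count of 3, which shrinks differences at such low levels, so the closeness of these 2 genes to ID2 depends on it. SMAD6 had 21.9 and 15.4 CPM with TGF-β1, against 1.69 and 2.59 CPM in controls, with the higher TGF-β1 replicate 1 of ID2.

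For ID3 they were BHLHE40 (0.292), LFNG (0.425) and GNL1 (0.454). BHLHE40, itself a helix-loop-helix repressor, had 281 and 351 CPM with TGF-β1, against 61.0 and 60.1 CPM in controls. The members were not each other's nearest: ID3 was the 15th nearest gene to ID2, ID2 the 28th nearest to ID3, and ID1 the 69th nearest to ID3. ID1 stood the 101st nearest to ID2. Seen from ID1 the others were far, with ID3 at rank 6645 and ID2 at rank 14379 among the 14774 tested genes. This distance weighs the size of a change as well as its direction. The log2 fold change was 1.20 for ID1, against 3.41 for ID2 and 2.55 for ID3. The far ranks thus do not mean opposite patterns, since all 3 had both TGF-β1 libraries above both controls.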

How the data were processed

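Stranded, paired-end libraries were made from MCF10A RNA after depletion of ribosomal RNA, per the labels' protocols, although another label field names polyA RNA. Per the submitters' processing notes, the authors used kallisto and the GRCh38 build. The kallisto version was not given in the sources used here, nor was the transcript release. Deposited tables hold estimated counts per transcript, which share a read among transcripts it could come from. They also hold TPM values by the authors, which correct for transcript length. The other deposited columns, transcript length and effective length in bases, are described per the file headers.

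Of 173259 transcripts, 159239 (91.91%) matched GENCODE release 29, and the rest held 2.24% to 2.38% of counts. Counts were summed per gene and rounded. The main test was edgeR 4.0.16 (R 4.3.3; TMM, filterByExpr, quasi-likelihood, no covariate, Benjamini-Hochberg adjustment, threshold 0.05), and DESeq2 1.42.0 was an alternative. SE was approximated as edgeR's log2 fold change over the root of the F statistic. CPM uses TMM-scaled totals, except for the limits given for ID4. The edgeR and DESeq2 gene fits and the isoform-use test were also run on simulated counts. The alternatives were scaling, filters, length offsets, a block for the replicate number, leaving out each library, and limma 3.58.1 on TPM.

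The members, the 15 gene lists and the tests were chosen with earlier results of these data known. Genes named from a list were up to 3 with the smallest edgeR p, all members of lists of at most 7, the 3 nearest patterns and neighbours within 500 kb. DLX1, CD3E, KRT18, KRT19, ELF5, PGR, KIT, TWIST2, SCX and TCF23 were added after their values were seen. So were the uncalled BMP-responsive factors named without values.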

Additional observations from a re-analysis of the deposited data

How the results depend on the processing

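The log2 fold changes of ID1, ID2 and ID3 were positive in all 17 alternatives, ranging from 0.91 to 1.56 for ID1 (called in 4), 3.15 to 3.65 for ID2 (called in 12) and 2.42 to 2.70 for ID3 (called in 10). Against 0 genes and 0 ID genes called by edgeR, DESeq2 called 90 genes and 3 ID genes, edgeR with no filter 15 and 2, and edgeR with transcript lengths as offset 3 genes and 0 ID genes. Without TGF-β1 replicate 1, TGF-β1 replicate 2, control replicate 1 or control replicate 2, edgeR called 18, 25, 8 or 13 genes, with 1 to 2 ID genes, and DESeq2 called 46, 71, 67 or 62 genes, with 2 to 3 ID genes. For transcripts, DESeq2 called 394 and 7 ID isoforms, against 0 and 0 by edgeR. RLE scaling, a filter of 50 counts, limma on log2(TPM + 1) or log2(TPM + 0.1) and a threshold of 0.01 gave 0 genes each. The intron-containing share of ID2 was higher by 1.15 percentage points by counts, against 2.60 by TPM. Without 1 library the differences of these shares ran from -1.33 to 0.51 points for ID1, 2.08 to 3.13 for ID2 and -3.68 to -1.80 for ID3, and the ratio of ID to E protein mRNA from 2.70 to 3.61. The causes were not tested.

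With the replicate block, edgeR called 335 genes and DESeq2 245, each with 3 ID genes, and edgeR called 0 transcripts. BAMBI, GATA2, ATOH8 and DLX1, which lost calls when 1 library was left out, were called by DESeq2 with the block. Their adjusted p-values in that fit were 0.000287, 1.40e-06, 1.24e-06 and 2.40e-11. The deviations of same-numbered libraries had a correlation of 0.678 over 14774 genes. With only 2 pairs, and labels that name no shared day or batch, the numbers were not taken to pair the samples.

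The limits are 2 libraries per group, 1 cell line, 1 time, and no control kept for 1.5 h without TGF-β1, so that handling and time cannot be told apart from TGF-β1.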
